A study of Mus musculus with 8 samples.

Results

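NF-kB genes, cytokines and acute phase genes were followed in luminal mammary cells of the mouse, isolated by sorting. The list of 43 genes holds NF-kB subunits, their inhibitors, the receptors and relays upstream, and genes that NF-kB is known to induce. It was picked from a comparison of these same arrays, because Birc3, Icam1, Tnf, Saa1 and Saa2 stood lower in the knockout, and the question was whether the others moved with them. The differences between the groups are therefore described here without a test. Of the 43 genes, 40 were measured, among 19505 named genes in all, each through 1 probe set. Nfkb1, Ripk2 and C3 were not analysed here.

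The series holds 8 Affymetrix arrays, 4 of cells labelled control and 4 of cells labelled a3a6KO, all from mice on day 15 of pregnancy. The name a3a6KO refers to the laminin-binding integrin chains alpha 3 and alpha 6, encoded by Itga3 and Itga6. Titles in the knockout group read DKO and Ctrl together, and the cell subtype label was used to set the groups. The strain, the alleles, the Cre line and what the control mice carried are not stated in the labels. The design speaks of biological replicates, without saying whether an array stands for 1 mouse or a pool. Values are log2 intensities, and background means the 95th percentile of the array's own intron control probe sets, which was 6.38 to 6.9. All 11 luminal markers examined, among them Krt8, Epcam and Csn2, exceeded it on every array. Itga6 was 8.83, 8.73, 9.14 and 8.80 on control arrays 1 to 4, against 5.95, 3.65, 8.21 and 7.85 on a3a6KO arrays 1 to 4, so a3a6KO 3 and 4 lay near the controls. Itga3 was 6.72, 6.30, 5.37 and 7.27 in control and 5.11, 4.34, 5.55 and 5.60 in a3a6KO, above background on 1 array.

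NF-kB is a family of paired transcription factors that inhibitor proteins hold in the cytoplasm. Signals such as TNF or interleukin 1 activate a kinase complex that marks the inhibitors for degradation, and the freed factors enter the nucleus and switch on cytokines, chemokines, adhesion molecules and acute phase proteins. They also switch on their own inhibitors, so that the response ends itself. In the mammary gland, NF-kB acts downstream of RANK in the growth of alveoli during pregnancy, and acute phase genes are switched on when milk removal stops.

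Promoter sequences show what some of these genes share. In RefSeq promoter windows (GRCm38.p6, 300 bases, from 250 before to 50 after a gene's start), the kappa-B consensus was searched on both strands. It consists of GGG, a purine, any base, A or T, 2 pyrimidines and CC, and matches may overlap. A window was given for 31 of the measured members, and 12 of these genes (38.7%) held a match in at least 1 window. Of all 27025 genes with a window, 5.14% did, and of the single windows 4.51%. The list was assembled largely from known NF-kB targets, so this share describes the list. A match is a run of letters and not a measured binding site.

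Among the 12 genes were the feedback inhibitor Nfkbia, the subunit Rel, the chemokines Cxcl1 and Cxcl2, the cytokine Il6 and the growth factor Csf1. Their 160 bases before the start are shown as examples of where the consensus lies in genes of different roles, with the matched bases in capitals. They lie at chr12:55492648-55492807 (-), chr11:23770970-23771129 (-), chr5:90891085-90891244 (+), chr5:90903739-90903898 (+), chr5:30012954-30013113 (+) and chr3:107760470-107760629 (-), where the sign in brackets gives the strand, and each is written along its gene.
Nfkbia: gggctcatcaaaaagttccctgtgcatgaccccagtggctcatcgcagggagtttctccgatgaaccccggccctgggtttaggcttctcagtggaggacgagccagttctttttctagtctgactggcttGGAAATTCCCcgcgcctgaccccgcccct
Rel: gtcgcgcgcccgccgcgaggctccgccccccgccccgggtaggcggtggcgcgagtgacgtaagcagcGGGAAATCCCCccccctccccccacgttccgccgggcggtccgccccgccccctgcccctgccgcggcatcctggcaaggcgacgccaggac
Cxcl1: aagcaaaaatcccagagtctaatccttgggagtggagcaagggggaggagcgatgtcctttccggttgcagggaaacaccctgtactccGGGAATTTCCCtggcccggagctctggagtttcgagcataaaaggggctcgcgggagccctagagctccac
Cxcl2: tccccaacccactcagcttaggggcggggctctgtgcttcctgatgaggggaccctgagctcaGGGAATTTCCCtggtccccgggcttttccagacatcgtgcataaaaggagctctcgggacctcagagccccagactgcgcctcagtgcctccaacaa
Il6: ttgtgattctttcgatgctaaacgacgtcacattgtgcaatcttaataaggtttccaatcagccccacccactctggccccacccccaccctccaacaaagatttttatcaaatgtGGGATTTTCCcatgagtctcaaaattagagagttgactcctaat
Csf1: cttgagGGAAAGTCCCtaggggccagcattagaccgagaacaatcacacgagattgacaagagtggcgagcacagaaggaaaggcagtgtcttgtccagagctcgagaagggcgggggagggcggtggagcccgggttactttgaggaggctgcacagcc
The match begins 29 bases before the start in Nfkbia, 92 in Rel, 71 in Cxcl1, 97 in Cxcl2, 44 in Il6 and 154 in Csf1. In Rel, Cxcl1 and Cxcl2 it reads on both strands, and in Nfkbia and Csf1 on the opposite strand only.

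None of the 5 genes that led to the choice of the list held a match in its window. Their 160 bases before the start are shown for comparison, at chr9:7873171-7873330 (-), chr9:21015780-21015939 (+), chr17:35202008-35202167 (-), chr7:46742981-46743140 (-) and chr7:46751673-46751832 (+).
Birc3: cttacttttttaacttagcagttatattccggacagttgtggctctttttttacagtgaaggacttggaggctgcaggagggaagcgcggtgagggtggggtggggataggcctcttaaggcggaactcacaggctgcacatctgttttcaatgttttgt
Icam1: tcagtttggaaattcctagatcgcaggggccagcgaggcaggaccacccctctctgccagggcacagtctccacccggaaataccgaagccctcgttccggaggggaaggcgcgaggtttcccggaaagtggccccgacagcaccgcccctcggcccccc
Tnf: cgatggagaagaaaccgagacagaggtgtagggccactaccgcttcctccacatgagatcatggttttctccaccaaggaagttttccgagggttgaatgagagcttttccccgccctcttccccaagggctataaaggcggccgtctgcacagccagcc
Saa1: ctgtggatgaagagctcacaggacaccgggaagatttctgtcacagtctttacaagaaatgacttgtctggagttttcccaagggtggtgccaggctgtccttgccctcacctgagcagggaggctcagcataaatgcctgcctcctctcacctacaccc
Saa2: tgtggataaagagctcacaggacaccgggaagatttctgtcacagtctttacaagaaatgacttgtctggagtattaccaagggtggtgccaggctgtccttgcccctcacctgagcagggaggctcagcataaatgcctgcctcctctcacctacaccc
That these letters are not in this window says nothing of sites elsewhere or of variants of the consensus. The sequences of Saa1 and Saa2, which are neighbours in the genome, agreed at 156 of 161 aligned positions (96.9%), with 3 mismatches and 2 gaps. These genes are close copies, and how far their probe sets detect each other's transcript is not known here.

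Most members had lower means in a3a6KO, by small amounts, and some had higher ones. The mean was lower in 30 of the 40 genes, where 50.1% of all genes had a lower mean. The median log2 difference, a3a6KO minus control, was -0.23 over the 40 members and -0.0025 over all genes. Without the 5 genes that prompted the choice, 25 of 35 were lower, with a median of -0.17. Of the members, 9 were lower by 0.5 or more (5.83% of all genes) and 5 were higher by 0.5 or more (5.46% of all genes). The 4 arrays of a3a6KO lay wholly below those of control in Birc3, Rel and Il33, 3 of 40 genes against 1.56% of all genes, and wholly above them in 0 genes (1.38%). In either direction that was 2.94% of all genes. In limma with Benjamini-Hochberg adjustment, 0 of all 19505 genes passed the threshold of 0.05 (0.0%), the members included, and 1000 genes had an unadjusted p under 0.05 (5.13%). As this contrast led to the choice of the list, nothing is read from these counts. Without control 4 the median over the members was -0.12, and without a3a6KO 4 the mean was lower in 26 genes.

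**Figure D1:**
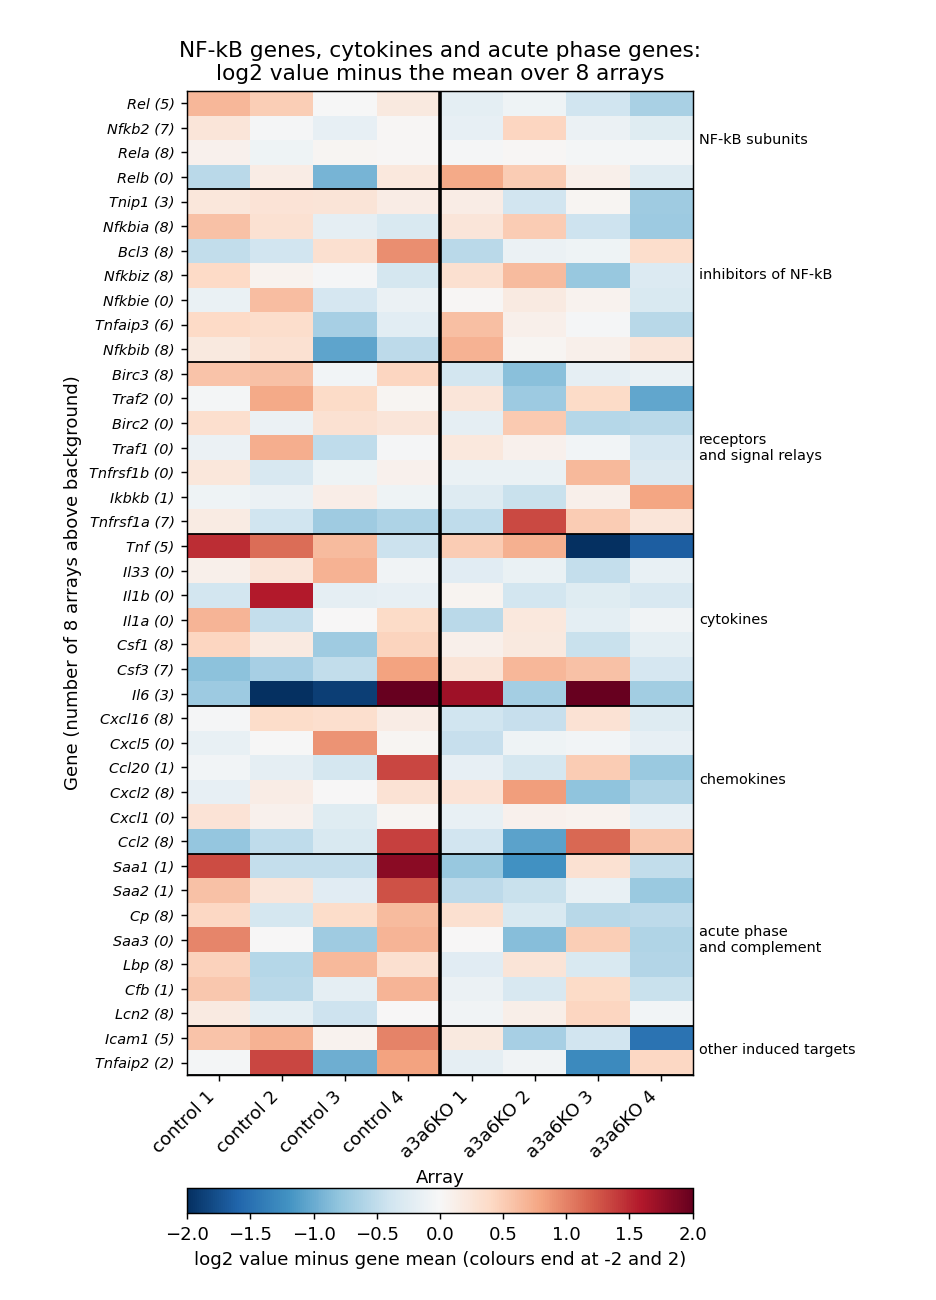
Log2 values centred on each gene's mean of the 8 arrays (colour, ending at -2 and 2) for the 40 measured genes (rows, by role and then by difference) on the 4 control and 4 a3a6KO arrays (columns). The number after each gene counts the arrays above background. Rows such as Tnf, Il6 and Saa1 vary strongly between arrays of the same group, whereas Rela is nearly constant.

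Many members were measured near background. Of the 40, 13 exceeded it on every array, 15 on some and 12 on none.

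Each array's level over the list was summarised as the median of the members after each gene was centred on its own mean (log2). It was 0.208, 0.075, -0.166 and 0.171 on control arrays 1 to 4, against -0.0894, -0.08, -0.0456 and -0.314 on a3a6KO arrays 1 to 4. Control 3 lay below 3 of the 4 a3a6KO arrays, so the groups overlapped. The order of the arrays differed between roles. In the inhibitors, control 1 and 2 and a3a6KO 1 were high (0.222, 0.304 and 0.244) and control 3, control 4 and a3a6KO 4 low (-0.186, -0.205 and -0.312). In the acute phase genes, control 1, control 4 and a3a6KO 3 were high (0.546, 0.676 and 0.297), and the other 5 arrays lay between -0.52 and -0.114.

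**Figure D2:**
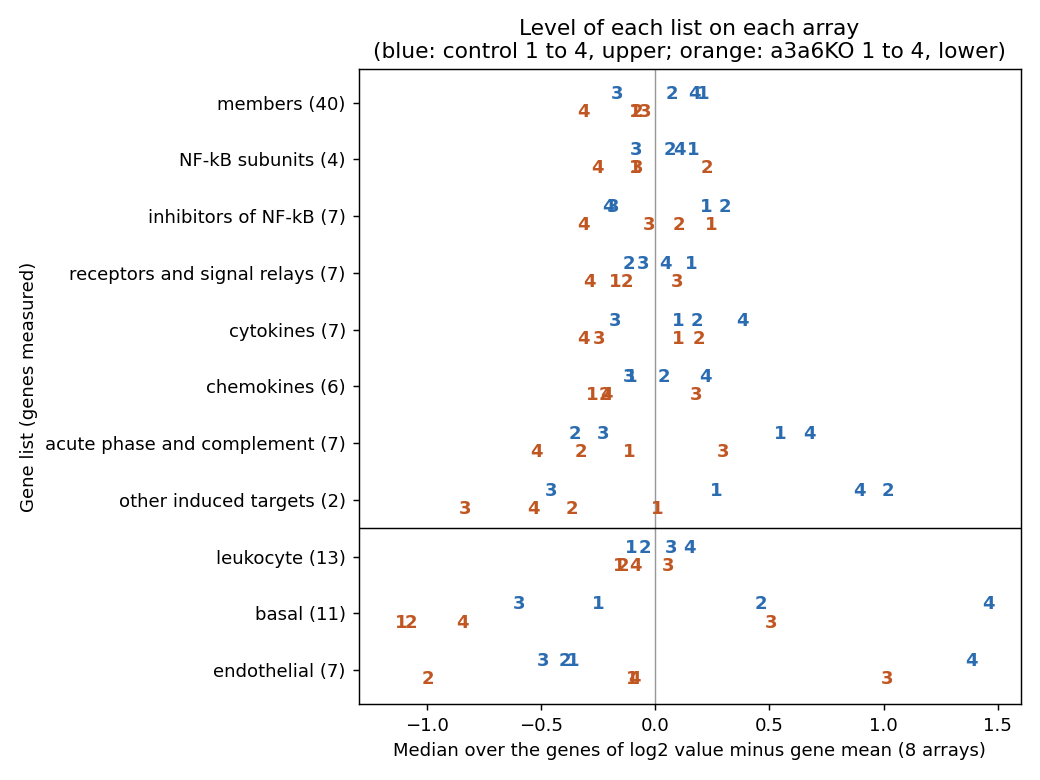
Level of each list on each array, as the median over its genes of log2 value minus gene mean (x axis), for the members, their 7 roles and 3 lists of markers of other cell types (y axis, with the number of genes). Digits give the replicate, blue for control and orange for a3a6KO. The blue and orange digits overlap in every list, and the arrays stand in a different order for inhibitors and for acute phase genes.

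Among the 4 subunit genes measured, the groups were apart in the c-Rel gene Rel only. Rel was 7.46, 7.30, 6.79 and 6.99 in control and 6.61, 6.71, 6.40 and 6.15 in a3a6KO. The controls were all higher, though control 3 exceeded a3a6KO 2 by little. The difference was -0.67 (SE 0.206), and 4 control arrays but 1 a3a6KO array exceeded background, so no fold is given. Rela, which encodes the main activating subunit p65, was 9.06, 8.89, 9.01 and 8.99 in control and 8.95, 9.0, 8.93 and 8.94 in a3a6KO. The 8 values spanned 0.17, and the difference was -0.03 (SE 0.138). Nfkb2, which encodes the precursor of p52, differed by -0.05 (SE 0.192) with overlapping groups. Relb, the partner of p52, was 5.19, 5.87, 4.80 and 5.94 in control and 6.48, 6.24, 5.82 and 5.46 in a3a6KO. Its difference of 0.55 (SE 0.316) came from values below background on every array, and the groups overlapped.

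Of the 7 genes listed as inhibitors, 5 were lower and 2 higher, with a median of -0.04. Nfkbia, which encodes the inhibitor I-kappa-B-alpha and is itself induced by NF-kB, was 10.20, 9.92, 9.43 and 9.31 in control and 9.86, 10.12, 9.20 and 8.89 in a3a6KO. It was high on arrays 1 and 2 of each group and low on arrays 3 and 4, and the groups overlapped widely. Its difference was -0.20 (SE 0.314), and 0.01 without a3a6KO 4. Nfkbiz, which encodes a nuclear co-regulator of the same family, was likewise higher on arrays 1 and 2 of each group, at 8.65, 8.32, 8.24 and 7.90 in control and 8.58, 8.89, 7.50 and 7.98 in a3a6KO, and differed by -0.04 (SE 0.309). Tnfaip3, whose product A20 switches the signal off by editing ubiquitin chains, differed by 0.06 (SE 0.308).

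Nfkbib, which encodes I-kappa-B-beta, was 8.73, 8.84, 7.48 and 8.01 in control and 9.23, 8.58, 8.64 and 8.78 in a3a6KO, a difference of 0.54 (SE 0.313). Control 3 and 4 were the low arrays, and control 1 and 2 lay within the range of a3a6KO. Without control 3 the difference was 0.28. Tnip1, which encodes a partner of A20, was 6.78, 6.83, 6.82 and 6.71 in control and 6.71, 6.17, 6.59 and 5.85 in a3a6KO, a difference of -0.46 (SE 0.209). Only a3a6KO 1 reached the controls, and Tnip1 was above background on 3 arrays of control and 0 of a3a6KO, which leaves its size uncertain. Bcl3 differed by -0.19 (0.09 without control 4) and Nfkbie by -0.02, below background on every array.

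**Figure D3:**
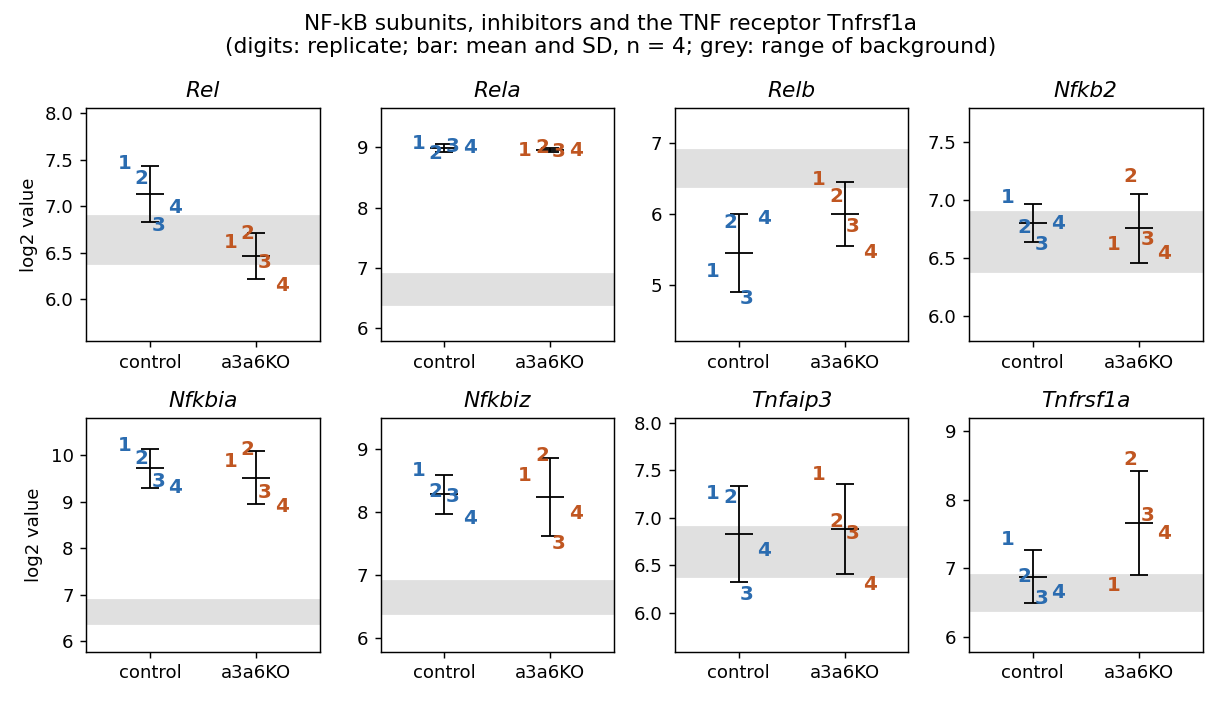
Log2 values (y axis) of 4 subunit genes, 3 inhibitor genes and the receptor gene Tnfrsf1a in control (blue) and a3a6KO (orange). Digits are replicates, black bars the mean and SD (n = 4), and the grey band the range of background over the arrays. The orange digits of Rel lie below all blue ones, Rela is flat near 9, and Nfkbia and Nfkbiz are high on arrays 1 and 2 of both groups.

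Among receptors and relays, Birc3 was lower and the TNF receptor gene Tnfrsf1a higher in a3a6KO. Birc3 encodes cIAP2, an inhibitor of apoptosis that attaches ubiquitin within the TNF receptor complex and is an NF-kB target. It was 9.27, 9.29, 8.65 and 9.13 in control and 8.34, 7.87, 8.52 and 8.57 in a3a6KO, above background on every array. All a3a6KO values lay below all controls, the nearest being a3a6KO 4 and control 3. The difference was -0.76 (SE 0.221), or 1.69-fold, and it ran from -0.91 to -0.61 when single arrays were left out. Its neighbour in the genome and close relative Birc2, which encodes cIAP1, differed by -0.38 (SE 0.259) at values below background on every array.

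Tnfrsf1a was 7.42, 6.87, 6.55 and 6.65 in control and 6.75, 8.59, 7.77 and 7.51 in a3a6KO. It was above all controls on a3a6KO 2, 3 and 4, while a3a6KO 1 lay among them. The difference was 0.78 (SE 0.368), and it was 0.47 without a3a6KO 2. The adaptor gene Traf2 (-0.58, SE 0.344) and the second TNF receptor gene Tnfrsf1b (0.05, SE 0.237) were below background on every array, as was Traf1 (-0.04). Ikbkb, which encodes the kinase that marks the inhibitors, exceeded background on 1 array, a3a6KO 4, and differed by 0.09 (SE 0.26).

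The cytokines differed in both directions. Tnf, which encodes the cytokine that is both an inducer and a product of NF-kB, was 8.38, 8.02, 7.54 and 6.48 in control and 7.41, 7.62, 4.56 and 5.26 in a3a6KO. Values of a3a6KO 1 and 2 lay within the control range, and those of a3a6KO 3 and 4 lay below it and below background. The difference was -1.39 (SE 0.712), but -0.84 without a3a6KO 3 and -0.09 without a3a6KO 3 and 4. On a3a6KO 3 and 4 Itga6 was 8.21 and 7.85, below the lowest control (8.73) but above a3a6KO 1 and 2. Tnf exceeded background on 3 control arrays and lay just under it on control 4, and it exceeded it on a3a6KO 1 and 2. The relation of Tnf to Itga6 was not tested.

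Il6, a cytokine that signals through Stat3, was 5.39, 3.35, 4.22 and 9.08 in control and 7.81, 5.43, 8.18 and 5.41 in a3a6KO. It was high on control 4, a3a6KO 1 and a3a6KO 3, the only arrays on which it exceeded background. The difference of 1.20 had an SE of 1.19 and was 2.39 without control 4 and 0.48 without control 2. Csf1, the growth factor of macrophages, was 9.33, 9.08, 8.18 and 9.35 in control and 9.0, 9.09, 8.45 and 8.71 in a3a6KO, above background on every array. The groups overlapped fully, with a difference of -0.17 (SE 0.284), or -0.44 without control 3. Csf3, the growth factor of neutrophils, differed by 0.58 (SE 0.376). Il1a, Il1b and Il33, genes of the interleukin 1 family, were below background on every array and differed by -0.30, -0.44 (0.02 without control 2) and -0.48.

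**Figure D4:**
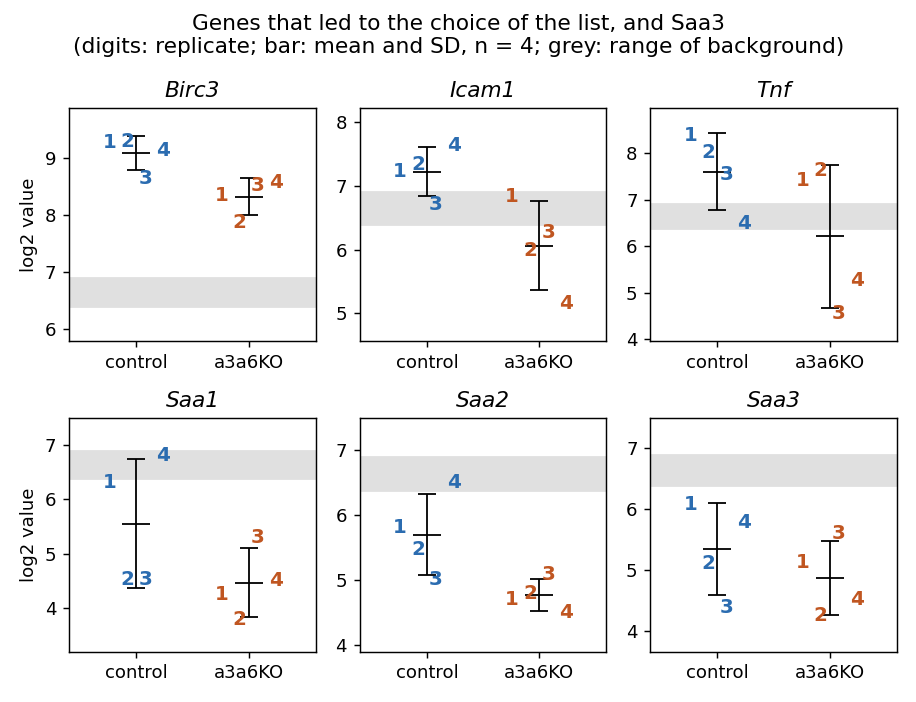
Log2 values (y axis) of Birc3, Icam1, Tnf, Saa1, Saa2 and Saa3 in control (blue) and a3a6KO (orange). Digits are replicates, black bars the mean and SD (n = 4), and the grey band the range of background over the arrays. Birc3 lies above the band throughout, Tnf drops below it on a3a6KO 3 and 4, and the Saa genes lie mostly below it, with control 1 and 4 highest.

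Among the 6 chemokines, 5 were lower in a3a6KO, none by 0.5 or more. Cxcl16, a membrane-bound chemokine, was 8.44, 8.83, 8.79 and 8.60 in control and 8.05, 7.99, 8.75 and 8.20 in a3a6KO, above background on every array. Only a3a6KO 3 lay within the control range, and the difference was -0.42 (SE 0.206). The neutrophil attractants Cxcl1 and Cxcl2 share the kappa-B match shown above and differed by -0.08 (SE 0.169) and -0.15 (SE 0.344). Cxcl1 was below background on every array, whereas Cxcl2 exceeded it on all 8. Cxcl2 was lowest on a3a6KO 3 and 4 (7.11 and 7.32) and highest on a3a6KO 2 (8.75). Cxcl5 was 2.81, 2.95, 3.86 and 2.99 in control and 2.50, 2.87, 2.90 and 2.79 in a3a6KO. That is far below background, and its difference of -0.39 was -0.15 without control 3.

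The monocyte attractant Ccl2 was 7.09, 7.36, 7.56 and 9.24 in control and 7.48, 6.79, 9.01 and 8.41 in a3a6KO. It was highest on control 4 and a3a6KO 3, and its difference was 0.11 (SE 0.571). Ccl20, above background on 1 array, was highest on the same arrays (6.94 and 6.11). On control 4 and a3a6KO 3, some genes of endothelial cells, contractile cells and fibroblasts were also high, though not all genes of these lists. The endothelial gene Tie1 was 3.08 on control 4 and highest on control 2 (3.57). The fibroblast gene Col1a2 was 3.99 on control 4 and 4.21 to 4.58 in a3a6KO. The endothelial cadherin gene Cdh5 was 8.31 on control 4 and 7.70 on a3a6KO 3 and at most 6.44 on the other arrays, and the contractile gene Cnn1 was 9.50 and 8.83 and at most 7.17 elsewhere. The levels of the endothelial list were 1.385 on control 4, 1.02 on a3a6KO 3 and -0.996 to -0.0913 on the 6 arrays other than these. Of its 7 genes, 3 exceeded background on no array. The level of the fibroblast list was 0.367 on control 4 and 0.517 on a3a6KO 3, and -0.424 to 0.0175 on the others, though 6 of its 7 genes exceeded background on no array. The exception, Dcn, was 7.11 and 7.38 on these arrays and at most 6.44 elsewhere. The part of other cells in the values of Ccl2, Ccl20 and Il6 was not tested.

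In the acute phase class, 6 of 7 genes were lower in a3a6KO and the median was -0.47. Saa1 encodes serum amyloid A1, a lipid-binding protein secreted in inflammation. It was 6.31, 4.53, 4.53 and 6.81 in control and 4.24, 3.79, 5.30 and 4.51 in a3a6KO. It was high on control 1 and 4 only, while control 2 and 3 lay within the a3a6KO range. The difference was -1.09 (SE 0.558), and -0.66 without control 4. Saa2 was 5.82, 5.48, 5.01 and 6.51 in control and 4.71, 4.80, 5.09 and 4.50 in a3a6KO, a difference of -0.93 (SE 0.303). Only a3a6KO 3 exceeded the lowest control. Each exceeded background on 1 array, control 4, so no fold is given.

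Saa3, a form also made outside the liver, was 6.08, 5.11, 4.39 and 5.79 in control and 5.12, 4.26, 5.60 and 4.51 in a3a6KO, below background on every array, with a difference of -0.47 (SE 0.411). Like Saa1 it was highest on control 1 and 4 and, within a3a6KO, on a3a6KO 3. Lcn2, which encodes the iron-trapping protein lipocalin 2, was 10.40, 10.03, 9.81 and 10.23 in control and 10.16, 10.34, 10.66 and 10.17 in a3a6KO. It lay far above background on every array, its highest value was in a3a6KO 3, and the difference was 0.22 (SE 0.193). The copper carrier gene Cp (-0.53, SE 0.271) and Lbp, whose product binds bacterial lipopolysaccharide (-0.43, SE 0.292), exceeded background on every array and overlapped between groups. The complement gene Cfb exceeded it on 1 array and differed by -0.25 (SE 0.306).

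Of the remaining targets, Icam1 encodes an adhesion molecule to which leukocytes bind. It was 7.22, 7.34, 6.71 and 7.63 in control and 6.84, 5.98, 6.26 and 5.16 in a3a6KO. Only a3a6KO 1 exceeded the lowest control, control 3, and only a3a6KO 1 exceeded background in that group. The difference was -1.17 (SE 0.347), with a range of -1.43 to -0.87 when single arrays were left out. Tnfaip2, a gene induced by TNF, was 5.93, 7.31, 4.99 and 6.77 in control and 5.79, 5.90, 4.69 and 6.39 in a3a6KO. Control 2 and 4 were highest and exceeded background, and the difference was -0.56 (SE 0.517) and -0.20 without control 2.

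**Figure D5:**
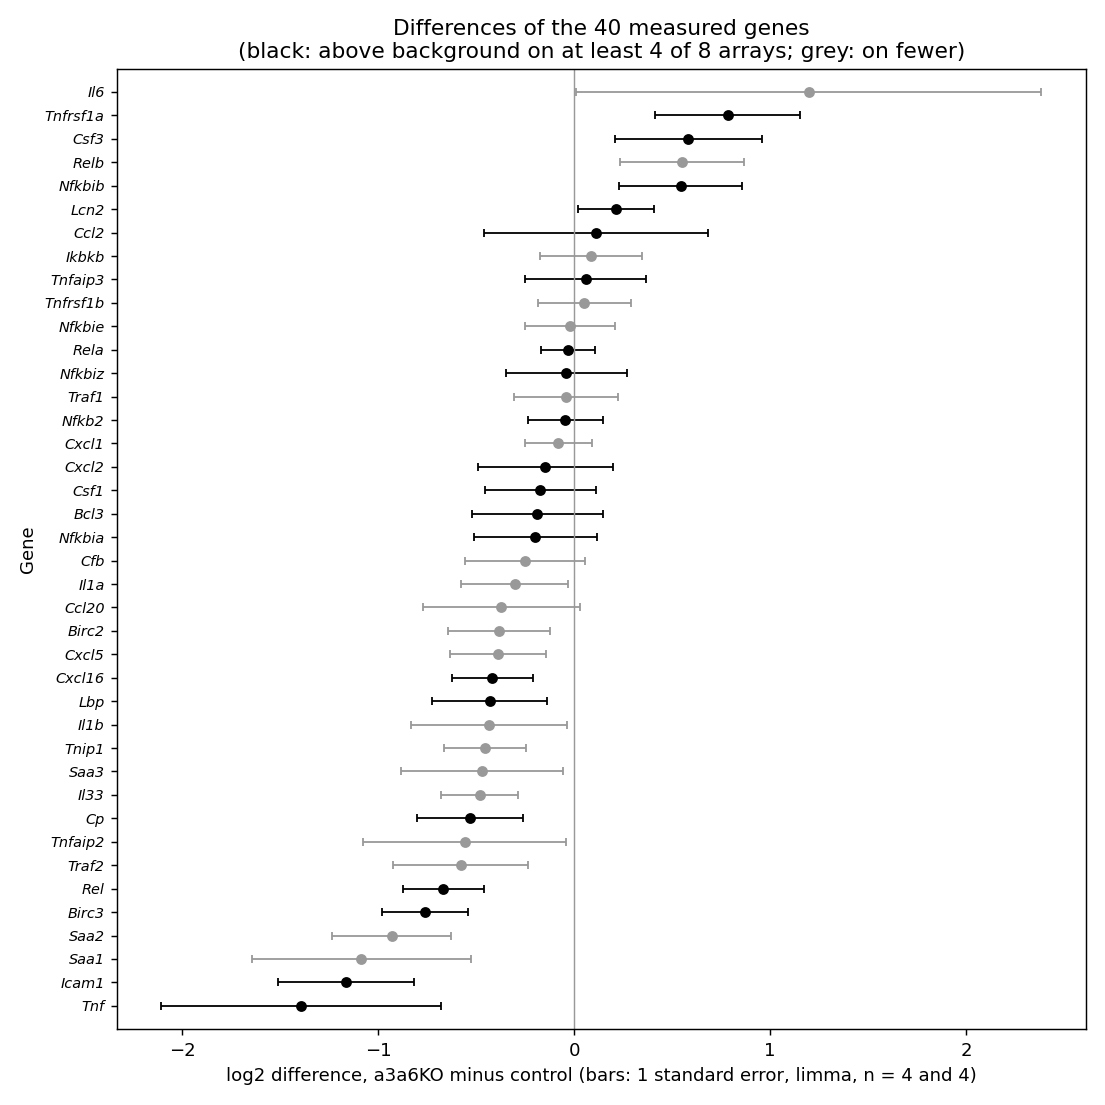
Log2 difference, a3a6KO minus control (x axis, bars of 1 standard error from limma, n = 4 in each group), for the 40 measured genes (y axis). Black marks genes above background on at least 4 of the 8 arrays and grey the others. The differences run from -1.39 in Tnf to 1.20 in Il6, with 30 genes to the left of 0.

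Some members followed a similar order of arrays within both groups. As a readout, each was set against Nfkbia over the 8 arrays, a choice made after the values were seen. Of the 39 others, 5 (12.8%) had a Pearson correlation of at least 0.7, as had 3.06% of all genes. Within the groups, after each gene was centred on its group means, 5 of the 39 and 4.7% of all genes reached 0.7. Of the 19505 genes, 14900 exceeded background on no array, against 12 of the 40 members, so these shares compare unlike sets. Over the 8 arrays, Tnf had the highest correlation, with r = 0.86 and Spearman's rho = 0.93. Its r was 0.76 without a3a6KO 4 and control 1, the 2 arrays farthest from the median of Nfkbia. Nfkbiz followed with r = 0.85 and rho = 0.88, and r = 0.92 without these arrays. The next were Tnfaip3 (r = 0.75), Nfkb2 (r = 0.74) and Rel (r = 0.71). Without the same 2 arrays, r fell to 0.60 for Tnfaip3, 0.58 for Nfkb2 and 0.29 for Rel. Within the groups, where the difference between them is taken out, r was highest for Rel (0.92), followed by Tnf (0.90). Because the readout was chosen with the values known, these correlations are a description, without a test.

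The opposite order of arrays was seen in Ccl2 (r = -0.82, rho = -0.88), in the kinase gene Ikbkb (r = -0.81, rho = -0.76; above background on 1 array) and, less closely, in Bcl3 (r = -0.69, rho = -0.71). Over all 8 arrays, r with Nfkbia was 0.03 for Birc3, -0.12 for Saa1, 0.14 for Saa2 and 0.13 for Saa3. Without a3a6KO 4 and control 1 these became -0.37, -0.75, -0.45 and -0.60, so they depend on those 2 arrays. Nfkbia, Nfkbiz, Tnf and Rel were each higher on arrays 1 and 2 than on arrays 3 and 4 of the same group. The intron control sets moved the same way, with medians of 3.07, 2.97, 2.87 and 2.85 on control arrays 1 to 4, against 3.03, 3.02, 2.97 and 2.93 on a3a6KO arrays 1 to 4. The labels do not say what the sample numbers stand for, and the part of the arrays' background in these relations was not tested.

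Leukocytes are a main source of Tnf and interleukins in tissue. Of 13 measured leukocyte markers, 10 exceeded background on no array, among them Cd3e, Adgre1, Itgam and Csf1r. The neutrophil gene S100a8, which epithelial cells can also express, exceeded it on control 2 (7.45), control 4 (6.86) and a3a6KO 3 (7.65) and differed by -1.38. H2-Aa, of antigen-presenting cells, exceeded it on a3a6KO 1 (6.82). The level of the list ranged from -0.104 to 0.15 in control and from -0.158 to 0.0563 in a3a6KO. Ptprc, which encodes CD45, exceeded background on control 3 (7.07) and was at most 4.84 elsewhere. The part of leukocytes in the values of Tnf and the interleukins was not tested. All 11 basal cell markers measured had lower means in a3a6KO (median -0.62), from -2.54 in Krt5 and -2.43 in Trp63 to -0.05 in Tagln. Of these markers, 2 exceeded background on every array, 7 on some and 2 on none. The level of the basal list was -0.251, 0.464, -0.595 and 1.46 in control and -1.11, -1.07, 0.509 and -0.844 in a3a6KO. The markers did not share 1 order of arrays: the basal keratin gene Krt5 was highest on control 2 and 3 (9.44 and 9.54), while the level of the list was highest on control 4 and lowest of the controls on control 3. Without control 4, the array of the highest basal level, 28 of the 40 members were lower, with a median of -0.12. Control 4 was also the array of the highest endothelial level (1.385). Without control 2 and 3, on which Krt5 was highest, 31 members were lower, with a median of -0.26. In sorted cells of this kind, fewer cells of a type and less RNA per cell cannot be told apart. The part of basal cells in the differences was not tested.

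Other genes of the pathway, from 3 lists, gave medians closer to that of all genes. Of these 83 measured genes, 50 exceeded background on no array, against 12 of the 40 members, which limits a comparison of the medians. Of 39 upstream genes, such as receptors, adaptors and kinases, 21 were lower and 18 higher, with a median of -0.07, and 0 passed the threshold in limma (smallest adjusted p = 0.944, 3 with an unadjusted p under 0.05). Fbxw11, part of the ligase that marks I-kappa-B for degradation, differed by -1.11 (SE 0.298) and the receptor gene Tlr2 by -0.76 (SE 0.297), while the lipopolysaccharide receptor gene Tlr4 differed by 1.11 (SE 0.367) and Il1rap, which encodes a co-receptor of interleukin 1, by 0.66 (SE 0.381). Tlr4 exceeded background on 2 arrays and Il1rap on 0, whereas Tlr2 exceeded it on all 8 and Fbxw11 on 7. In Fbxw11 the a3a6KO arrays (6.34 to 7.59) lay wholly below the controls (7.86 to 8.64). The groups were apart in this 1 of the 83 genes, against 2.94% of all genes in either direction.

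Of 29 other target genes, 17 were lower and 12 higher (median -0.07), and 0 passed (smallest adjusted p in limma 0.944, 1 with an unadjusted p under 0.05). The transcription factor gene Irf1 differed by -0.74 (SE 0.288) and the activation marker gene Cd83 by -0.74 (SE 0.353, below background on every array). The chemokine gene Ccl5 differed by 0.99 (SE 0.575, above background on 1 array) and the protease gene Mmp9 by 0.20 (SE 0.161, below background). Of 15 other acute phase genes, 8 were lower and 7 higher (median -0.06), and 0 passed or had an unadjusted p under 0.05 in limma (smallest adjusted p = 0.944). Cd14, a co-receptor for lipopolysaccharide that luminal progenitors also express, differed by -0.56 (SE 0.342) and was the only gene of that list above background on any array. Saa4 differed by -0.36, Apcs by 0.58 and Fgb by 0.25.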

How the data were processed

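Luminal cells of 8 samples were profiled on Affymetrix arrays. The deposited log2 values were made by the authors with Affymetrix Expression Console and RMA (background correction, quantile normalization between arrays and a summary per probe set), per the submitters' processing notes, which state no versions. Quantile normalization takes out any change common to most genes. For the build behind the probe sets, nothing is stated in the sources used here. Arrays have no depth, and their number limits the precision. No 2 arrays were identical.

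Gene symbols came from GEO's annotation of the platform. Of 28846 sets, 19572 had 1 symbol, 0 several and the others none, and for 55 genes with several sets the one of highest mean was kept. Groups were compared with limma 3.58.1 (R 4.3.3; linear model with group as its term, eBayes, two-sided, Benjamini-Hochberg over 19505 genes, threshold 0.05), and the procedure was tested on simulated data. Background came from 5222 intron control sets. The members and lists were chosen with earlier results of these data known. Values per array are given for Birc3, Icam1, Tnf, Saa1 and Saa2 and, in each role, for the gene of highest mean and the 2 of largest difference, with a few more (Nfkbiz, Ccl2 and Saa3) added after their values were seen. Of the other pathway genes, the 2 of smallest p in each direction are named per list. Correlations over the 8 arrays are given without a test. Alternatives covered the probe set, the normalization, dim genes, single replicates, the replicate number as a block, the variance model and array weights. P-values set the difference between the groups against the spread between these arrays.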

Additional observations from a re-analysis of the deposited data

Results flagged for a closer look

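Among the 80 groups of 4 values (40 genes in control and in a3a6KO), 3 held a value set apart from the other 3 by most of the group's range, where chance gives about 1 in 20 groups. Il1b was 6.36 in control 2, and the other controls reached at most 4.61. Tnfrsf1b was 4.41 in a3a6KO 3, above the next value of 3.63. Ikbkb was 5.97 in control 3, above the next value of 5.76. All 3 values lay below background.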

How the results depend on the processing

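In limma, 0 genes passed under each of the 18 alternatives, and the counts with an unadjusted p under 0.05 ran from 929 to 1062 where all genes were kept. The median difference over members was -0.29 to -0.12 when single replicates were left out (without a3a6KO replicate 2 and without control replicate 4), and it stayed below 0 under every alternative run. The number of lower members was 26 to 31 when single replicates were left out, and 14 of 20 with dim genes left out, where fewer members are counted and a gene can pass through the control arrays alone. Centring each array on its median gave 29 lower members and a median of -0.20, while the median of all genes moved to 0.03. With the exclusions chosen after seeing the data, the median was -0.23 without a3a6KO 3 and 4 (26 lower), -0.26 without control 2 and 3 (31 lower) and -0.17 without control 4 and a3a6KO 3 together (27 lower). Of the 40 members, 25 kept their sign under every alternative run, 20 of them lower and 5 higher, and 15 changed it under at least 1. With the replicate block, 0 genes passed and 1003 had an unadjusted p under 0.05. Samples that share a number did not deviate together over all genes (correlations of deviations -0.061 to 0.039). Of the 19505 genes, 14900 exceeded background on no array, so these correlations cannot show whether the numbers pair the samples. Signal over background limits the 12 members below background on every array.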

Other observations

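Among target genes outside the list, the chemokine gene Cxcl10 was 8.18, 7.77, 6.68 and 7.14 on control arrays 1 to 4, against 7.31, 8.58, 6.77 and 6.60 on a3a6KO arrays 1 to 4. It was thus higher on arrays 1 and 2 than on arrays 3 and 4 of each group, as were Nfkbia, Nfkbiz, Tnf and Rel, and it exceeded background on every array. Ccl7, a monocyte attractant, was 7.10 on control 4 and 7.22 on a3a6KO 3 and at most 5.58 elsewhere, the arrays on which Ccl2 was highest. Both genes were picked after their values were seen, and the groups overlapped in each.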
